A study of Mus musculus with 135 samples.

Results

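The brain's response to circulating stress hormone was followed through 10 genes in the cortex and hippocampus of Townes mice, which carry human haemoglobin genes in place of the mouse ones. The genes were taken by symbol from the count table of each tissue, and all 10 were found among the 55416 genes of each table and passed the filter on low counts in every comparison. They comprised both corticosteroid receptors (Nr3c1, Nr3c2), 5 genes that glucocorticoids induce (Fkbp5, Sgk1, Tsc22d3, Per1, Zbtb16), corticotropin-releasing hormone and its main receptor (Crh, Crhr1), and an enzyme that makes active hormone inside cells (Hsd11b1).

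Corticosterone, the main glucocorticoid of mice, enters cells and binds the mineralocorticoid receptor, which is largely occupied at resting hormone levels, and the glucocorticoid receptor, which is occupied as the hormone rises with stress or with the daily peak. The bound receptors move to the nucleus and attach to glucocorticoid response elements, paired hexamers in opposite orientation, from which they raise the transcription of targets such as Sgk1, Tsc22d3, Per1, Zbtb16 and Fkbp5. FKBP5 in turn lowers the affinity of the receptor for hormone, which closes a negative feedback loop, and the hippocampus is known for its dense mineralocorticoid receptor.

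All mice were male. AA mice carried normal human haemoglobin and SS mice carried the sickle form, so that every group, controls included, was a humanised haemoglobin line. RSD, repeated social defeat, placed an aggressive intruder in the cage for a period on consecutive evenings, and minocycline was given in the drinking water. The brains were taken after behavioural testing that followed RSD, so that the levels were not measured during the defeat itself. Control groups went through the testing too, which included fear conditioning with foot shocks, so that unstressed here means without RSD. In cortex 12 AA libraries had neither exposure, 2 came from AA + RSD mice, 18 from AA mice with both exposures and 1 from an AA mouse on minocycline alone. The sickle mice gave 8 unexposed libraries, 6 with RSD only, 14 with both exposures and 4 with minocycline only. Hippocampus had the same numbers except for 11 AA and 7 SS mice without exposure. The single AA + minocycline mouse entered no comparison. Because the tissue was measured in bulk, fewer cells of a type and less RNA per cell cannot be told apart.

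Several libraries stood apart. In each tissue the SS + minocycline mouse 9887 and the AA + RSD + minocycline mouse 9877 held identical counts and both were left out, and the AA + RSD mouse 9674 was left out because its cortex library carried hippocampal markers and its hippocampus library cortical ones. Libraries of 4 mice went against their genotype labels and were kept. The summed red blood cell precursor markers Alas2 and Slc4a1 stood at 106 and 56.1 CPM (counts per 1000000 reads on genes) in cortex of the AA-labelled mice 5844 and 5853 and at 6.97 CPM in that of the SS-labelled mouse 7078, where the medians were 4.61 in AA and 114 in SS mice, and the AA mouse 9631 held 1944 cortex reads of the mouse beta-globin gene Hbb-bs, of which no other cortex library held more than 8. Cortical neuron markers summed to 314 to 404 CPM in AA cortex and 66.8 to 135 in AA hippocampus, and hippocampal ones to 112 to 185 and 249 to 616, as the tissue labels name them, but 5 cortex libraries and 1 hippocampus library had under 60% of the tissue's median for the summed markers of its own neurons. In cortex the lowest library had 16295042 reads on genes and the highest 107713193, and in hippocampus these were 12869149 and 68731008. The mouse numbers fell in 3 ranges, called here number series A (5349 to 5400 and 9615 to 9674), C (7037 to 7121 and 10633 to 10639) and B (the remainder). Every mouse given RSD without minocycline was of series A and every mouse given minocycline was of series B or C, whereas the untreated AA and SS mice came from A and B.

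The response element itself can be read in the promoters of these genes, and 3 are shown because they hold the response element or the E-box discussed here. Of the 10 genes, 7 had entries in the RefSeq promoter table for GRCm38.p6, each window running from 250 bases before a start site to 50 bases after it; Nr3c1, Crh and Zbtb16 had none. The palindrome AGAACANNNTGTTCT was searched on both strands and stood in 3 of 32851 windows (0.00913%). One of the 3 belonged to Sgk1, the serum- and glucocorticoid-regulated kinase that acts on ion channels and transporters. The 250 bases before that start site, at chr10:21993640-21993889 on the plus strand, are printed with the palindrome, which begins 189 bases before the start, in capitals.
Sgk1: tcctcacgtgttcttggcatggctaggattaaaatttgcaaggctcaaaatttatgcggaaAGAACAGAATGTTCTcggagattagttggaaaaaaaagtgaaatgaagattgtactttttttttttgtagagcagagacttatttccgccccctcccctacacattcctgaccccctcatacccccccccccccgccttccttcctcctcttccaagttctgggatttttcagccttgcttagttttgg
The single hexamer AGAACA, which overlaps the palindrome, stood in 19% of windows, among them 3 of the 6 Sgk1 windows and 1 of the 3 of Tsc22d3. The E-box CACGTG, the letters bound by the circadian clock's activators, stood in 7.15% of windows. For the clock repressor Per1 the E-box began 166 bases before the start site, and for Fkbp5 169 bases before it; the same letters also stood at 246 bases before the start of the Sgk1 window above. The windows of Per1 at chr11:69098699-69098948 (plus strand) and of Fkbp5 at chr17:28486150-28486399 (minus strand) are shown with the E-box in capitals.
Per1: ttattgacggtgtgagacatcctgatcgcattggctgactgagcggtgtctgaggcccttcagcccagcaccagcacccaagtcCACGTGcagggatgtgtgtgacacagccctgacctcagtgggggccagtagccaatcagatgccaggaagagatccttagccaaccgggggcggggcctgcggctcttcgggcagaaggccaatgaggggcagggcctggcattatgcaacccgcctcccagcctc
Fkbp5: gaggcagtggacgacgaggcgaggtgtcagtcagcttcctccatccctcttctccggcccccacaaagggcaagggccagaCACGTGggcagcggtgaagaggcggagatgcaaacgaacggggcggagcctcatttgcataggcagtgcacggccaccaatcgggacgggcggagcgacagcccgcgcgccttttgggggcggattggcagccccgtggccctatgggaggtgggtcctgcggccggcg
These are matches of letters in short windows only, and no binding was measured in this study.

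The largest differences in the whole set lay between the tissues of unstressed, untreated mice. In AA mice 7 of the 10 genes differed between hippocampus and cortex (edgeR's quasi-likelihood test, adjusted p under 0.05), 3 higher and 4 lower, where 36.6% of the 19255 genes tested were called. In SS mice 7 were called as well, 2 higher and 5 lower, where 30.6% of all genes were called. All but 2 of these mice (AA 9633 and SS 5854, cortex only) gave both tissues, and a fit with the mouse as a block called 9 and 8 of the 10, where it called 53% and 41.3% of all genes.

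The receptors showed opposite tissue patterns. Nr3c2, the mineralocorticoid receptor (ENSMUSG00000031618.14; GRCm39 chromosome 8, 77625576 to 77971863, plus strand), ran from 30.1 to 40.3 CPM in AA cortex, median 35.2, and from 124 to 199 in AA hippocampus, median 162. The lowest hippocampus library thus lay above every cortex library of the group. The log2 fold change was 2.21 (SE 0.07, 95% interval 2.06 to 2.36, adjusted p = 1.67e-24 with edgeR), a 4.63-fold difference, and in SS mice it was 2.25 (SE 0.09, adjusted p = 1.45e-21 with edgeR). Nr3c1, the glucocorticoid receptor (ENSMUSG00000024431.16; chromosome 18), ran the other way, from 97.5 to 129 CPM in AA cortex and from 58.8 to 102 in AA hippocampus, so that the ranges overlapped slightly. Its log2 fold change was -0.54 (SE 0.07, adjusted p = 4.92e-08 with edgeR) in AA mice and -0.52 (SE 0.09, adjusted p = 8.6e-06 with edgeR) in SS mice. Per kilobase of exon, Nr3c1 stood at 14.2 ± 1.12 CPM (SD, n = 12) and Nr3c2 at 4.12 ± 0.36 in AA cortex, whereas in AA hippocampus Nr3c1 stood at 9.94 ± 1.56 and Nr3c2 at 19.4 ± 2.68 (SD, n = 11). The order of the receptors per length was therefore reversed between the tissues, and the SS means lay within 1 SD of the AA means for both receptors in both tissues.

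Among the induced targets, Fkbp5 (ENSMUSG00000024222.18; chromosome 17, 28618058 to 28737521, minus strand) had the largest tissue difference. It ran from 27 to 61.6 CPM in AA cortex and from 68.5 to 98 in AA hippocampus, without overlap. The log2 fold change was 0.82 (SE 0.10, adjusted p = 2.82e-09 with edgeR) in AA mice and 0.94 (SE 0.12, adjusted p = 2.22e-08 with edgeR) in SS mice. Tsc22d3, which encodes the leucine zipper protein GILZ, an inhibitor of inflammatory transcription factors (ENSMUSG00000031431.14; chromosome X, 139440091 to 139501408, minus strand), was lower in hippocampus by a log2 fold change of -0.32 (SE 0.09, adjusted p = 0.00289 with edgeR) in AA mice and -0.31 (SE 0.11, adjusted p = 0.0243 with edgeR) in SS mice. The direction held but the Tsc22d3 call was lost in series A only (adjusted p = 0.181 in AA and 0.42 in SS mice with edgeR), and in SS mice also in series B only (0.0728) and with no filter on low counts (0.073). Per1 (ENSMUSG00000020893.18; chromosome 11, 68986035 to 69002300, plus strand) gave -0.23 (SE 0.14, adjusted p = 0.235 with edgeR) in AA mice and -0.49 (SE 0.18, adjusted p = 0.0332 with edgeR) in SS mice, the SS call being lost in series B only (0.117) and with no filter (0.0632), and with the mouse as a block the AA value of -0.23 passed (adjusted p = 0.0219 with edgeR). Sgk1 (ENSMUSG00000019970.16; chromosome 10, 21758083 to 21875802, plus strand) gave -0.06 (95% interval -0.42 to 0.31), with means of 104 ± 37.9 CPM in AA cortex (SD, n = 12) and 103 ± 41.8 in AA hippocampus (SD, n = 11). Zbtb16, the zinc finger repressor PLZF (ENSMUSG00000066687.6; chromosome 9, 48563141 to 48748664, minus strand), gave 0.19 (SE 0.19, adjusted p = 0.493 with edgeR), and 0.18 (SE 0.06, adjusted p = 0.0225 with edgeR) with the mouse as a block.

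Crh, the neuropeptide that drives the pituitary arm of the stress axis and is made by scattered interneurons outside the hypothalamus (ENSMUSG00000049796.5; chromosome 3, 19747565 to 19749655, minus strand), was the least abundant member. It ran from 3.21 to 7.44 CPM in AA cortex and from 0.763 to 2.29 in AA hippocampus, without overlap, and the counts behind single hippocampus libraries went down to 8. The log2 fold change was -2.15 (SE 0.21, adjusted p = 2.73e-11 with edgeR) in AA mice and -2.42 (SE 0.26, adjusted p = 5.02e-10 with edgeR) in SS mice. Crhr1, its G protein-coupled receptor (ENSMUSG00000018634.11; chromosome 11, 104023164 to 104066351, plus strand), followed the same pattern, with 19.8 to 37.3 CPM in AA cortex, 6.7 to 15.6 in AA hippocampus, and a log2 fold change of -1.42 (SE 0.11, adjusted p = 1.69e-13 with edgeR). The SS value of Crhr1 was -1.55 (SE 0.14, adjusted p = 9.41e-12 with edgeR). Hsd11b1, the reductase that regenerates corticosterone from its inert keto form (ENSMUSG00000016194.15; chromosome 1, 192903918 to 192946489, minus strand), was higher in AA hippocampus by 0.60 (SE 0.18, adjusted p = 0.00839 with edgeR), and the SS value was 0.53 (SE 0.23, adjusted p = 0.0753 with edgeR). Hsd11b1 ran from 14.2 to 25 CPM in AA cortex and from 19.2 to 55.1 in AA hippocampus, so the ranges overlapped. Exons of 5 of the genes overlap a gene annotated on the other strand, over 3.58% (Fkbp5) to 14.8% (Nr3c1) of their length, and the strand setting of the counting was not given in the sources used here.

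**Figure D1:**
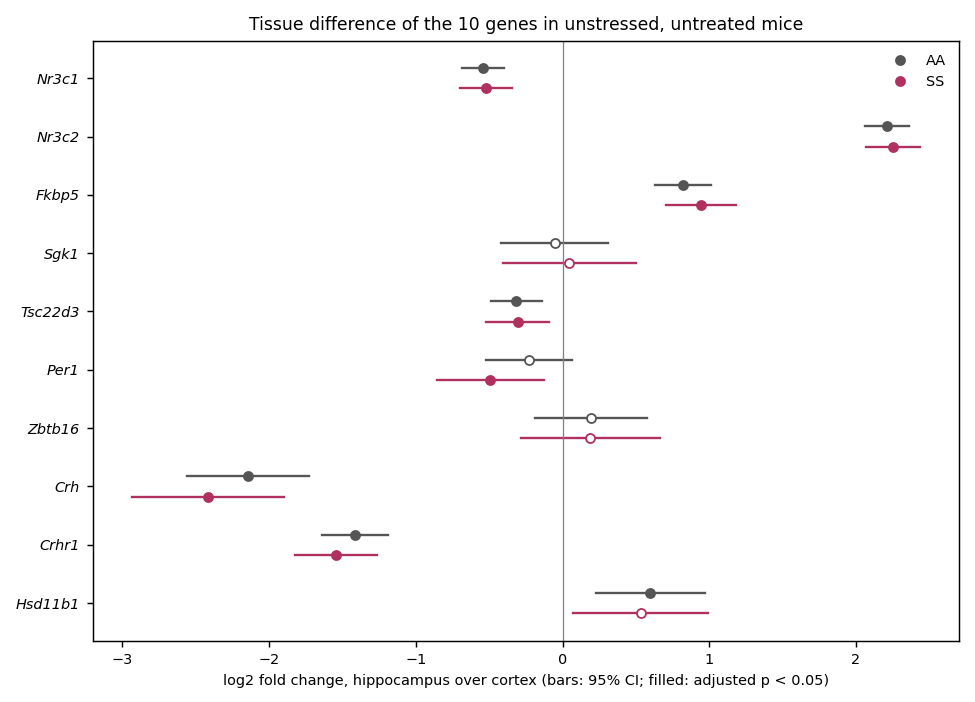
Log2 fold change of each gene, hippocampus over cortex (horizontal axis), in AA (grey) and SS (red) mice without stress or treatment. Points are edgeR estimates, bars are 95% intervals and filled points passed adjusted p < 0.05. Nr3c2 and Fkbp5 lay to the right and Crh and Crhr1 to the left in both genotypes, with intervals clear of 0.

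Beside the difference between tissues, some of the induced targets differed between mice in a way that both tissues of the mouse shared. How many of all genes do so is not given here, so this cannot be called particular to these genes. Group means were taken off the log2 CPM of each tissue, and the remainder was compared over the 62 mice with both tissues, a comparison chosen after the values were seen. For Sgk1 Pearson's r between cortex and hippocampus was 0.753 (permutation p = 1e-05, the smallest that 100000 permutations can give, 2.5e-05 after Benjamini-Hochberg adjustment over the 10 genes) and Spearman's rho was 0.764. Tsc22d3 followed with r = 0.723 and rho = 0.738, Per1 with r = 0.661 and rho = 0.681, Hsd11b1 with r = 0.544 and rho = 0.607, Zbtb16 with r = 0.542 and rho = 0.617, and Fkbp5 with r = 0.532 and rho = 0.540, each with an adjusted permutation p of at most 8.33e-05 for both measures. The receptors gave lower values, with r = 0.117 for Nr3c1 (adjusted permutation p = 0.407) and r = -0.04 for Nr3c2 (adjusted permutation p = 0.763), and rho of 0.249 and 0.097. Crh gave r = 0.341 (rho = 0.336, adjusted permutation p = 0.00963) and Crhr1 r = 0.339 (rho = 0.281, adjusted permutation p = 0.00971).

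Leaving out the 2 mice farthest from the cortex median kept r at 0.747 for Sgk1, 0.716 for Tsc22d3, 0.611 for Per1, 0.467 for Fkbp5, 0.630 for Zbtb16, 0.543 for Hsd11b1 and 0.323 for Crh, but that of Crhr1 went to 0.155. By series, r of Crhr1 was 0.529 in series B, -0.749 in series A and 0.263 in series C. Within series B (42 mice) r was 0.787 for Sgk1, 0.769 for Tsc22d3, 0.637 for Per1, 0.598 for Zbtb16 and 0.516 for Fkbp5. Within series A (13 mice) the same genes gave 0.163, 0.398, 0.664, 0.255 and 0.259, so that the relation was weaker there for all but Per1, and within series C (7 mice) they gave 0.967, 0.696, 0.252, 0.106 and 0.617. The percent of each library's reads that fell outside annotated genes also varied between mice. With that percent taken off as well, r stayed at 0.765 for Sgk1, 0.686 for Tsc22d3 and 0.536 for Fkbp5, whereas it was 0.318 for Per1, 0.357 for Hsd11b1, 0.257 for Crh, 0.084 for Crhr1 and 0.065 for Zbtb16.

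**Figure D2:**
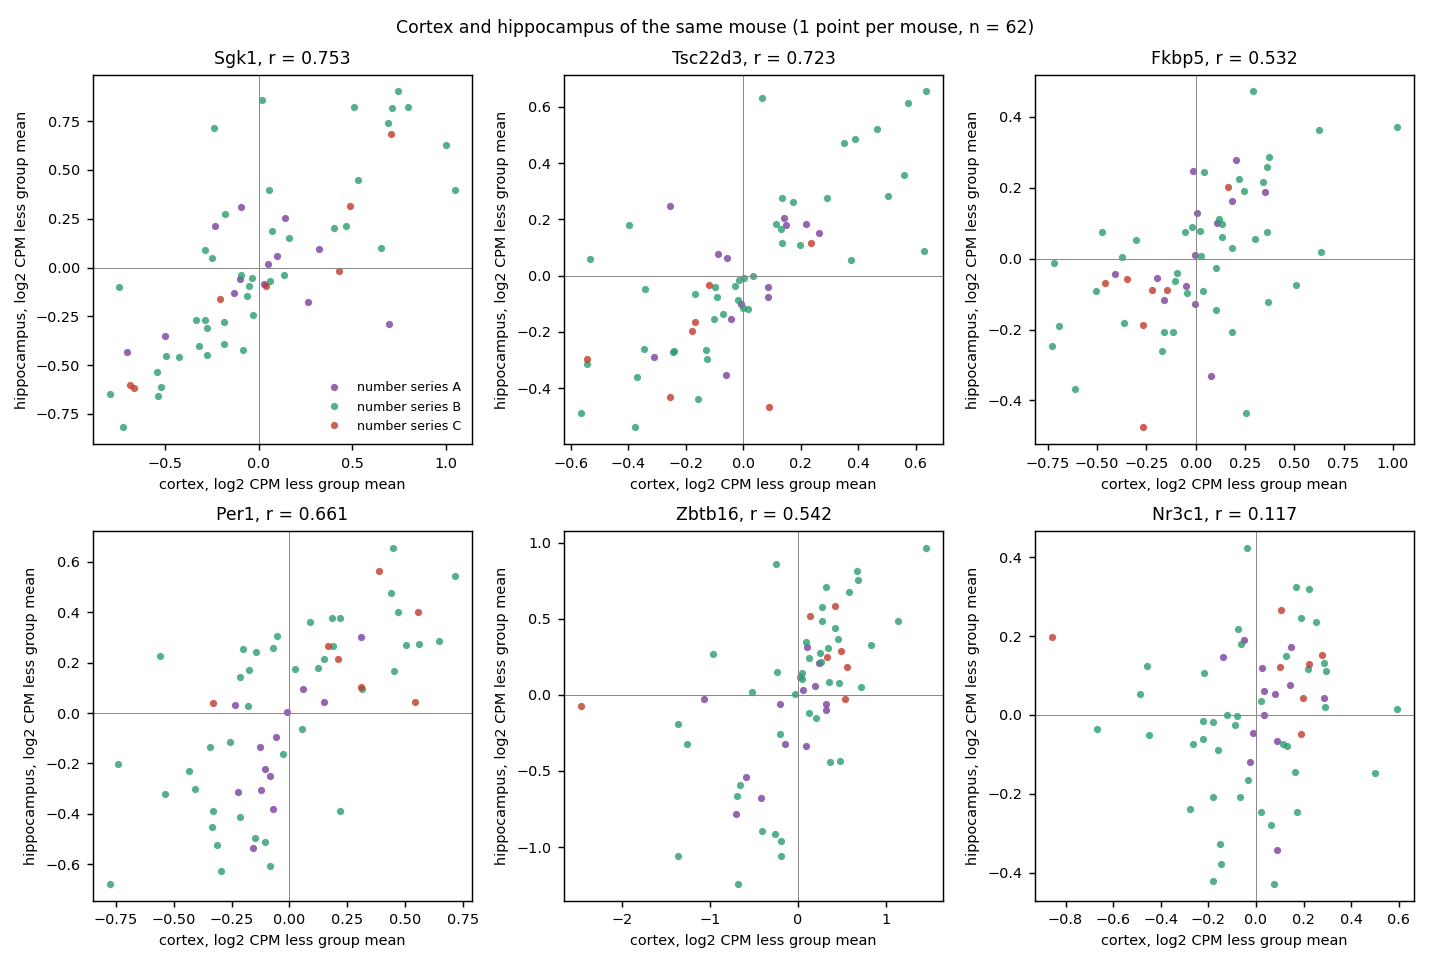
Cortex level (horizontal axis) against hippocampus level (vertical axis) of 6 genes, each as log2 CPM less the mean of the mouse's group, 1 point per mouse (n = 62), coloured by number series, with Pearson's r above each panel. Sgk1 and Tsc22d3 rise along the diagonal, whereas Nr3c1 shows no such slope.

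Within a tissue, some pairs of the induced targets were related. Of 20 pairs (10 in each tissue), 10 passed an adjusted permutation p of 0.05 on Pearson's r. The share of all gene pairs that pass is not given here, and genes outside this set reached r of up to 0.939 with Per1 in hippocampus. Sgk1 and Tsc22d3 rose together in cortex (r = 0.626, rho = 0.637) and hippocampus (r = 0.670, rho = 0.647), each with an adjusted permutation p of at most 5e-05, and so did Per1 and Zbtb16 (cortex r = 0.581 and rho = 0.649, hippocampus r = 0.839 and rho = 0.828). Fkbp5 moved with Tsc22d3 in cortex (r = 0.521, rho = 0.496, adjusted permutation p at most 2e-04) and less in hippocampus (r = 0.321, rho = 0.341, adjusted permutation p = 0.0222). Sgk1 also moved with Fkbp5 (r = 0.408), Per1 (r = 0.541) and Zbtb16 (r = 0.414) in cortex, with rho of 0.433, 0.493 and 0.363 and adjusted permutation p of at most 0.00818. The same pairs gave r of 0.207, 0.136 and 0.136 in hippocampus, none of which passed (adjusted permutation p = 0.151, 0.368 and 0.368). In hippocampus Fkbp5 and Per1 moved in opposite directions (r = -0.32, rho = -0.30, adjusted permutation p = 0.0222 and 0.0358). Without the 2 farthest libraries r was 0.571 and 0.616 for Sgk1 with Tsc22d3, 0.597 and 0.816 for Per1 with Zbtb16, 0.425 and 0.344 for Fkbp5 with Tsc22d3, and -0.28 for Fkbp5 with Per1 in hippocampus. With the percent of reads outside genes taken off, r was 0.413 in cortex and 0.78 in hippocampus for Per1 with Zbtb16. For Sgk1 with Tsc22d3 these values were 0.686 and 0.668, and Fkbp5 with Per1 gave -0.219 in hippocampus. By series A, B and C, r of Per1 with Zbtb16 in hippocampus was 0.364, 0.854 and 0.456. For Sgk1 with Tsc22d3 in hippocampus it was 0.345, 0.705 and 0.853.

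Sgk1 was split in the SS + RSD + minocycline group. Of the 62 mice, 9 had more than 120 CPM of Sgk1 in cortex, 13 in hippocampus and 7 had more than 120 CPM of Sgk1 in both tissues, a level chosen after the values were seen, 5 of them SS + RSD + minocycline mice and 2 AA mice without stress or treatment. The 5 were mice 5797, 5800, 7078, 9810 and 9812, with 203, 211, 165, 173 and 162 CPM in cortex and 181, 157, 186, 207 and 129 CPM in hippocampus. The AA mice were 9838, with 175 and 182 CPM, and 9839, with 151 and 177 CPM. The other 9 SS + RSD + minocycline cortex libraries lay between 56.4 and 95.5 CPM, with none between 95.5 and 162. In hippocampus 7 of the group lay from 129 to 207 CPM, since mice 5801 and 9813, at 95.5 and 95.2 CPM in cortex, had 193 and 143 CPM there, and the others lay from 58.8 to 95.2. Mouse 7078 was among the libraries that went against their genotype label.

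**Figure D3:**
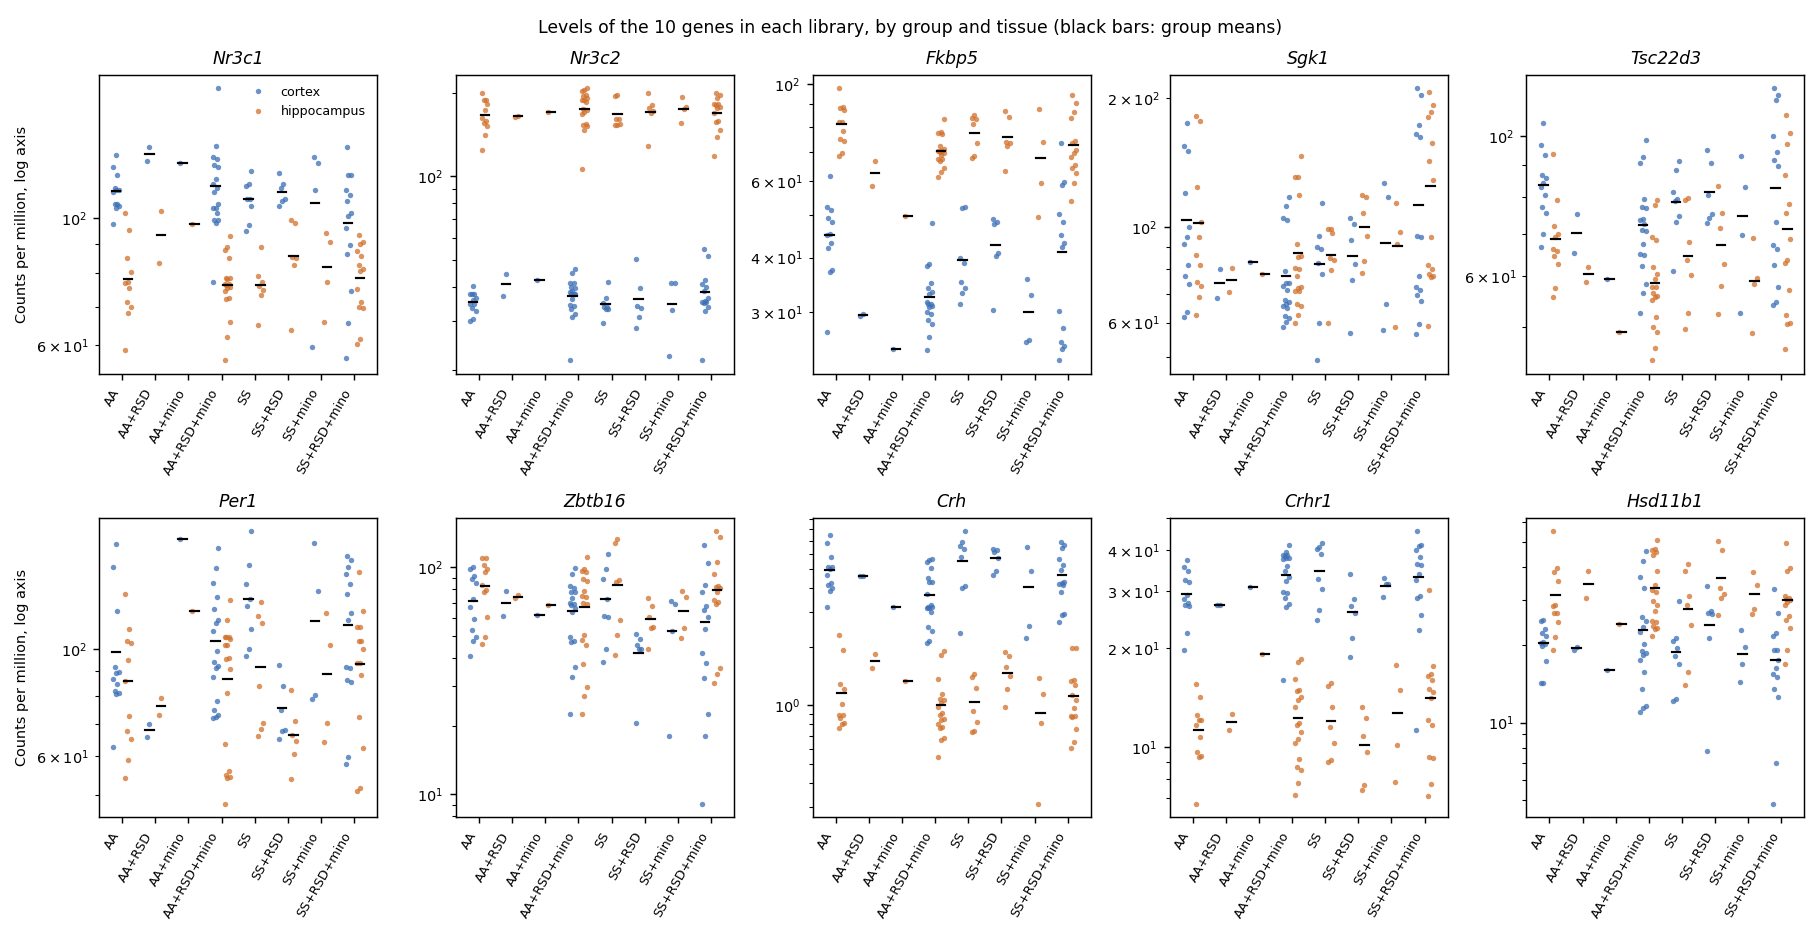
CPM (log axis) of the 10 genes in every library used, by group on the horizontal axis, with cortex in blue, hippocampus in orange and black bars at group means. The tissue difference of Nr3c2, Crh and Crhr1 recurs in every group, and Sgk1 is most spread in the SS + RSD + minocycline group.

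Whether repeated social defeat changed the system in sickle mice was asked by SS + RSD against SS. None of the 10 genes was called in cortex, where 2.57% of 19906 genes were (edgeR); 1 had an unadjusted p under 0.05 and DESeq2, which called 10.5% of all genes here, called the same one, Per1. None was called in hippocampus by edgeR or DESeq2, where edgeR called 3.11% of 20701 genes, and 2 had an unadjusted p under 0.05. The median log2 fold change of the 10 genes was 0.17 in cortex and 0.15 in hippocampus, beside 0.08 and 0.06 over all genes.

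Per1 in cortex stood out. The SS + RSD libraries held 65.3, 67.6, 68.1, 74.9, 84 and 92.8 CPM, and the SS libraries ran from 96.9 to 175 with a median of 125. The groups did not overlap, which held for 1 of the 10 genes in cortex and for 0.954% of all genes tested, and in hippocampus for none of the 10 genes and 1.46% of all. The log2 fold change was -0.63 (SE 0.20, 95% interval -1.03 to -0.23), 1.55-fold lower, and just missed the threshold (adjusted p = 0.0636 with edgeR), which it passed under settings that called more genes in all, with RLE size factors (adjusted p = 0.0471 with edgeR), with DESeq2 (adjusted p = 0.0162) and in a fit of only these groups (adjusted p = 0.0091 with edgeR). The SS mice of series A, 5353 and 5349, had 96.9 and 110 CPM, and against them alone the value was -0.44 (SE 0.14, adjusted p = 1 with edgeR). Without the cortex libraries low in neuron markers it was -0.60 (adjusted p = 0.0831 with edgeR). In hippocampus Per1 ran from 53.8 to 82.5 CPM in SS + RSD and from 66.1 to 125 in SS mice, with a log2 fold change of -0.36 (SE 0.18, adjusted p = 0.28 with edgeR), and series A alone gave 0.02.

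The other targets did not separate the groups. Sgk1 ran from 56.7 to 105 CPM in SS + RSD cortex and from 49 to 114 in SS cortex (log2 fold change 0.19, 95% interval -0.39 to 0.77), and from 78.5 to 119 and 59.9 to 99.4 CPM in hippocampus (0.33, -0.18 to 0.83). Fkbp5 gave 0.24 (-0.21 to 0.68) in cortex and 0.07 (-0.20 to 0.35) in hippocampus, and Tsc22d3 gave 0.17 (-0.18 to 0.53) and 0.16 (-0.21 to 0.53). Zbtb16 gave -0.64 (-1.45 to 0.17) in cortex, where mouse 9621 had 20.7 CPM and the other 5 SS + RSD libraries 43.5 to 51 CPM, and -0.39 (-0.96 to 0.18) in hippocampus. Mouse 9621 was also the SS + RSD cortex library low in cortical neuron markers, with a summed 187 CPM of the 5 markers, and its striatal markers summed to 448 CPM where the SS cortex libraries ran from 29.3 to 104; the part of these cells in the result was not tested. Microglial markers summed to 223 to 320 CPM in SS + RSD and 173 to 232 in SS cortex, and to 257 to 338 and 200 to 276 in hippocampus, and cortical neuron markers to 187 to 356 and 334 to 420 in cortex; the part of these in the results of this comparison was not tested either.

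No receptor, CRH gene or Hsd11b1 was called either. Nr3c1 gave 0.17 (-0.15 to 0.48) in cortex and 0.26 (0.04 to 0.48, adjusted p = 0.164 with edgeR) in hippocampus, and Nr3c2 gave 0.19 (-0.11 to 0.48) and 0.14 (-0.10 to 0.38). Crh gave 0.16 (-0.37 to 0.69) in cortex and 0.60 (0.003 to 1.19, adjusted p = 0.253 with edgeR) in hippocampus, where the SS + RSD libraries ran from 0.983 to 1.87 CPM and the SS libraries from 0.727 to 1.45. Crhr1 gave -0.29 (-0.67 to 0.09) and -0.14 (-0.61 to 0.33). Hsd11b1 gave 0.45 (-0.18 to 1.08) and 0.50 (-0.04 to 1.03, adjusted p = 0.299 with edgeR).

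**Figure D4:**
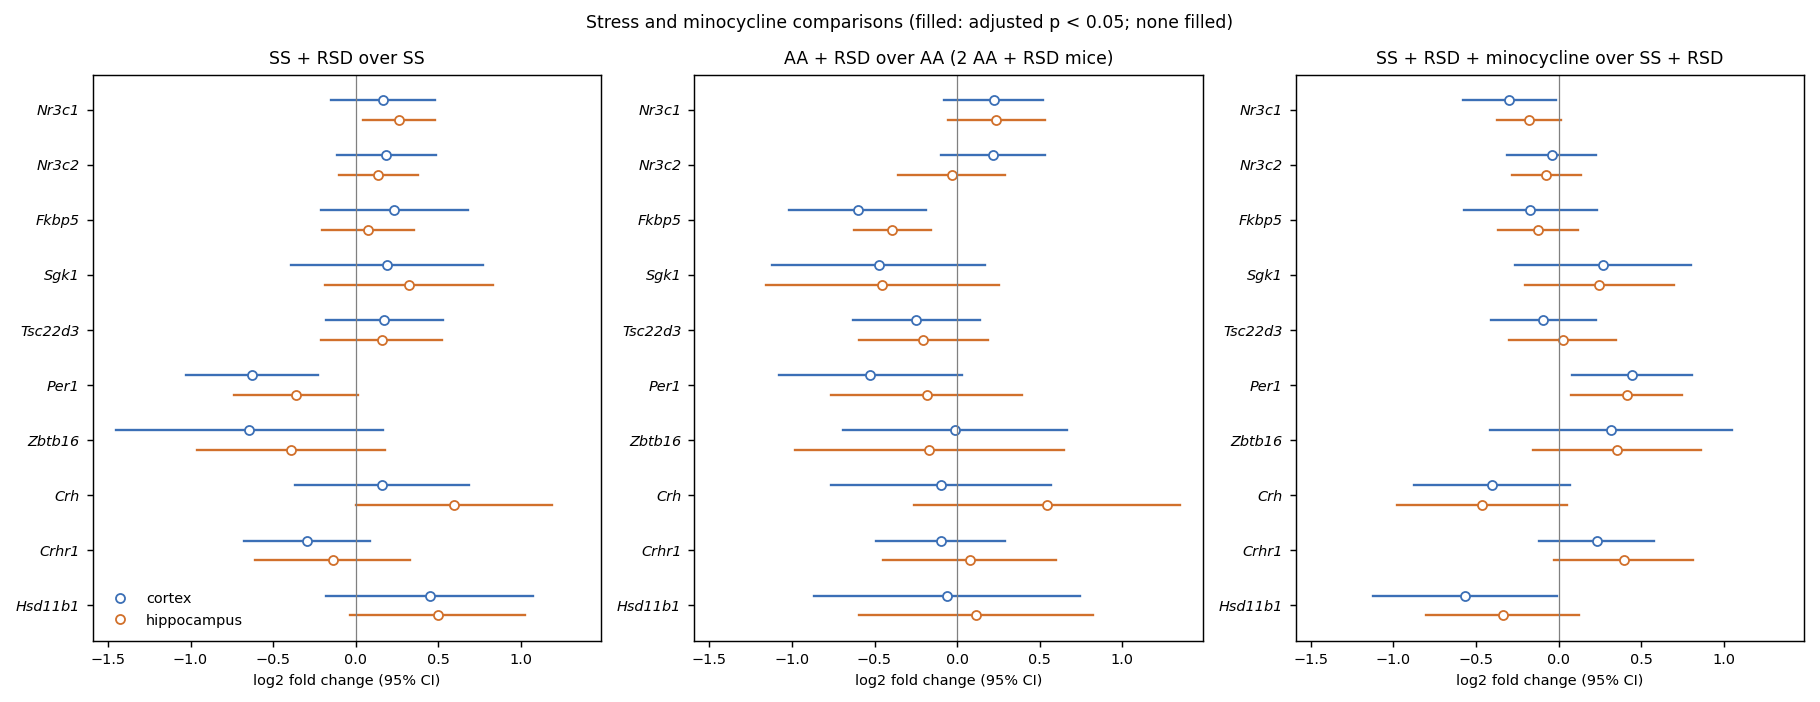
Log2 fold change (horizontal axis) of each gene in SS + RSD over SS, AA + RSD over AA and SS + RSD + minocycline over SS + RSD, in cortex (blue) and hippocampus (orange), with 95% intervals. No point is filled, since no gene passed adjusted p < 0.05, and Per1 in cortex lies at -0.63 in the left panel.

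In AA mice the same question rested on 2 stressed animals, 9643 and 9646. Fkbp5 measured 29.6 and 29.3 CPM in their cortex, where AA libraries ran from 27 to 61.6, and 58.4 and 66.7 CPM in their hippocampus, where AA libraries ran from 68.5 to 98. The hippocampus ranges did not overlap, but the share of all genes with such a gap is not given for this comparison. The log2 fold change of Fkbp5 was -0.60 (SE 0.20, adjusted p = 0.822 with edgeR) in cortex and -0.39 (SE 0.12, adjusted p = 0.899 with edgeR) in hippocampus, so that no call was made. No member was called in AA + RSD against AA, with 1 of 10 at an unadjusted p under 0.05 in each tissue and 0 called by DESeq2, where 0% of 21861 genes in cortex and 0.0419% of 21486 genes in hippocampus were called. With the libraries of mouse 9674 kept under their labels, Nr3c2 was called in cortex, where 0.853% of all genes were called. Fkbp5 and Crh were then called in hippocampus, where 1.19% were. Nr3c2, Fkbp5 and Crh also differed between the tissues in AA mice, and the libraries of mouse 9674 carried the other tissue's markers. That mouse held 68.6 CPM of Fkbp5 in the library labelled cortex and 36.2 in that labelled hippocampus. The former, which carried hippocampal markers, lay within the AA hippocampus range of 68.5 to 98.

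Stressed sickle and stressed control mice were compared directly, and the difference between their responses was tested as an interaction. SS + RSD against AA + RSD called 0% of genes in cortex and 0.0171% in hippocampus, and the interaction called 0% and 0.0128%. None of the 10 genes was among them with edgeR or DESeq2, and 0 and 1 genes (direct comparison) and 1 and 1 genes (interaction) had an unadjusted p under 0.05 in cortex and hippocampus. Fkbp5 was the member with the lowest p each time, with an interaction of 0.80 (95% interval 0.14 to 1.47, adjusted p = 1 with edgeR) in cortex and 0.43 (0.05 to 0.82, adjusted p = 1 with edgeR) in hippocampus. The direct values of Fkbp5 were 0.54 (SE 0.29) and 0.34 (SE 0.17), both with an adjusted p of 1 with edgeR.

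No member separated the genotypes. SS against AA called none of the 10 genes with edgeR or DESeq2, none at an unadjusted p under 0.05 in either tissue, and 0.206% of 22870 genes in cortex and 0.158% of 23372 in hippocampus. Sgk1 had the lowest p, with -0.42 (SE 0.22, 95% interval -0.87 to 0.02, adjusted p = 0.678 with edgeR) in cortex and -0.27 (SE 0.22, adjusted p = 1 with edgeR) in hippocampus. The sickle mice with both stress and minocycline were also set against AA mice with both, all of them of series B or C. Again none was called with edgeR or DESeq2, where 0.599% of genes in cortex and 2.73% in hippocampus were, and 4 and 2 members had an unadjusted p under 0.05. Sgk1 was higher in SS + RSD + minocycline mice by 0.51 (95% interval 0.16 to 0.85, adjusted p = 0.238 with edgeR) in cortex and 0.50 (0.18 to 0.82, adjusted p = 0.0884 with edgeR) in hippocampus, neither past the threshold. In hippocampus Sgk1 ran from 58.8 to 207 CPM, median 112, in the SS mice and from 60 to 147 CPM, median 78.6, in the AA mice, so that the AA range lay within the SS range.

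Minocycline in unstressed sickle mice gave no call. In SS + minocycline against SS 0% of genes were called in either tissue, and no member was called with edgeR or DESeq2 or had an unadjusted p under 0.05. The 4 SS + minocycline mice 9888, 9889, 7108 and 7121 had 118, 66.2, 127 and 57.6 CPM of Sgk1 in cortex and 97.7, 91.4, 114 and 58.6 CPM in hippocampus, within or close to the SS ranges. Their Per1 was 78.9, 80.3, 166 and 132 CPM in cortex, the series C mice being higher than the series B mice, and 70.5, 64.3, 119 and 102 CPM in hippocampus, where series C was again higher. The members with the lowest p were Crh in cortex (-0.38, SE 0.30, adjusted p = 0.82 with edgeR) and Nr3c1 in hippocampus (0.17, SE 0.12, adjusted p = 0.981 with edgeR). SS + RSD + minocycline against SS + minocycline, the effect of stress under treatment, likewise called 0% of genes in both tissues and no member with either tool or at an unadjusted p under 0.05, with Fkbp5 at 0.38 (SE 0.24, adjusted p = 0.979 with edgeR) in cortex and Sgk1 at 0.42 (SE 0.26, adjusted p = 0.997 with edgeR) in hippocampus.

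Treatment was also compared in stressed mice. SS + RSD + minocycline against SS + RSD called 8.85% of genes in cortex and 5.96% in hippocampus and none of the 10 members with edgeR or DESeq2, with 3 and 1 members at an unadjusted p under 0.05. Per1 was 0.45 (SE 0.18, adjusted p = 0.105 with edgeR) in cortex, where the treated mice ran from 57.8 to 156 CPM, and 0.41 (SE 0.16, adjusted p = 0.108 with edgeR) in hippocampus. The treated and untreated mice of this comparison shared no number series, so that treatment and series cannot be told apart. SS + RSD against SS uses the same SS + RSD mice. In AA mice, AA + RSD + minocycline against AA + RSD called 0% of genes in cortex and 0.0419% in hippocampus and no member with edgeR or DESeq2, with 1 and 0 members at an unadjusted p under 0.05. Per1 in cortex (0.57, SE 0.27, adjusted p = 0.368 with edgeR) and Nr3c1 in hippocampus (-0.27, SE 0.14, adjusted p = 0.696 with edgeR) had the lowest p.

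Some of these genes differed between the number series, as did a large share of all genes. In untreated, unstressed mice, series B against A with genotype in the model called 43.2% of 17512 genes in cortex and 45% of 18668 in hippocampus. Of the 10 genes 3 were called in cortex and 4 in hippocampus, shares close to the background. Zbtb16 was higher in series B by 0.58 (SE 0.18, adjusted p = 0.0128 with edgeR) in cortex and 0.69 (SE 0.20, adjusted p = 0.00823 with edgeR) in hippocampus, Crhr1 by 0.27 (SE 0.11, adjusted p = 0.0422 with edgeR) and 0.34 (SE 0.13, adjusted p = 0.0463 with edgeR; both calls lost with no filter on low counts, at 0.143 and 0.0712), and Per1 by 0.55 (SE 0.14, adjusted p = 0.00467 with edgeR) in hippocampus, while its cortex value was 0.31 (SE 0.15, adjusted p = 0.0932 with edgeR). Hsd11b1 was lower in series B by -0.44 (SE 0.13, adjusted p = 0.00851 with edgeR) and -0.84 (SE 0.17, adjusted p = 0.000704 with edgeR). The same genes gave opposite signs in SS + RSD against SS, in which all stressed mice were of series A, and both comparisons use the SS mice.

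The percent of reads outside annotated genes moved with these levels. It ran from 3.68% to 13.9% in cortex and from 3.98% to 24% in hippocampus, and no library lay between 6.49% and 7.34% in either tissue. All 6 untreated series A cortex libraries lay below 7%, and the 1 SS + RSD cortex library above it, mouse 5354 at 8.39%, was the one with the highest Per1 of its group. Some series B libraries lay below 7% too. Among AA cortex libraries, the 6 under 7%, 4 of series A and 2 of series B, had 40.7 to 66.6 CPM of Zbtb16, and the 6 over it, all of series B, had 72.4 to 100 CPM, without overlap. SS cortex libraries had 38.3 and 43.9 CPM of Zbtb16 under 7% and 60.7 to 114 over it. The share of all genes with such a gap at 7% is not given here. Per1 ran from 62.8 to 91.9 CPM under 7% and from 84.8 to 165 over it in AA cortex, Hsd11b1 from 20.4 to 25 and from 14.2 to 21.7, and Sgk1 from 63.6 to 155 and from 61.9 to 175, so that Sgk1 showed no such split. In AA hippocampus the ranges overlapped, with 45.9 to 110 CPM of Zbtb16 under 7% and 83.4 to 110 over it, 54.2 to 130 and 86.1 to 110 of Per1, and 21.5 to 55.1 and 19.2 to 28.5 of Hsd11b1. With the percent as a term, series B against A called none of the 10 genes in cortex, where it called 0% of all genes, and Hsd11b1 alone in hippocampus, where it called 10.9%. Zbtb16 in cortex was -0.16 and Crhr1 -0.13, both turned in sign. In SS + RSD against SS the same term gave -0.27 for Per1 and 0.28 for Zbtb16 in cortex, neither called, and the series term -0.43 and 0.07. What sets the percent was not tested.

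**Figure D5:**
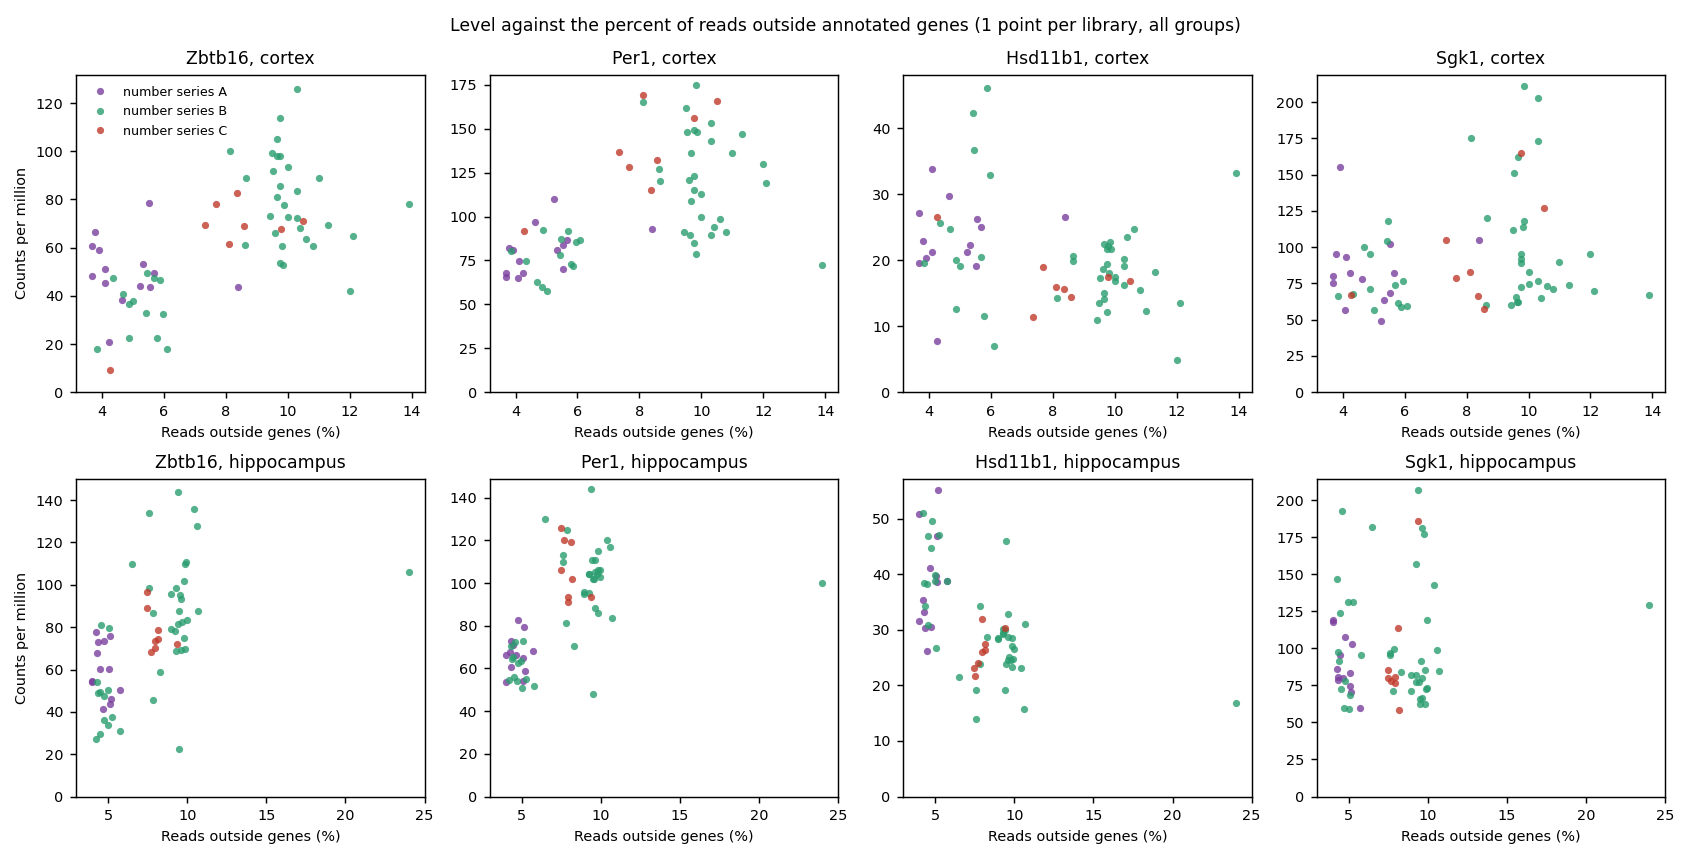
CPM (vertical axis) of Zbtb16, Per1, Hsd11b1 and Sgk1 against the percent of reads outside annotated genes (horizontal axis), 1 point per library of any group, coloured by number series, with cortex in the upper row and hippocampus in the lower. In AA cortex Zbtb16 runs from 40.7 to 66.6 under 7% and from 72.4 to 100 over it, whereas in AA hippocampus its ranges, 45.9 to 110 and 83.4 to 110, overlap. The share of all genes split in this way is not given.

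Other genes of the pathway were read from 4 lists. In SS + RSD against SS no gene of any list was called in either tissue, with edgeR: 13 receptor chaperones and coregulators, 24 other glucocorticoid-induced genes, 5 and 6 of 10 tested genes of the CRH and vasopressin system and 5 of 6 of steroid metabolism and transport. The median log2 fold change of the chaperones was 0.28 in cortex and 0.21 in hippocampus and that of the induced genes 0.23 and 0.11, beside 0.08 and 0.06 for all genes. SS + RSD + minocycline against SS + RSD called 3 of 13 chaperones in cortex, all lower, where 8.85% of all genes were called, and 0 of 13 in hippocampus, where 5.96% were. These were Stip1, the adaptor that joins HSP70 to HSP90 (-0.46, SE 0.12, adjusted p = 0.0213 with edgeR), Hspa4 (-0.30, SE 0.09, adjusted p = 0.0284 with edgeR) and the HSP90 subunit Hsp90ab1 (-0.27, SE 0.09, adjusted p = 0.0448 with edgeR). In the controls, series B against A called 8 of 13 chaperones lower in cortex, and 8 lower and 1 higher in hippocampus, where 43.2% and 45% of all genes were called. The same treatment comparison called 1 of 24 induced genes, Hif3a (1.29, SE 0.42, adjusted p = 0.0497 with edgeR), which was also higher in series B by 1.35 (SE 0.28, adjusted p = 0.000803 with edgeR) in cortex.

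SS + RSD + minocycline against AA + RSD + minocycline called 4 of 24 induced genes in cortex and 3 in hippocampus, all higher in the sickle mice, where 0.599% and 2.73% of all genes were called in either direction, with list medians of 0.30 and 0.17 beside 0.00 and -0.01 for all genes. In cortex they were Lcn2, the iron-siderophore binding protein lipocalin (3.15, SE 0.57, adjusted p = 0.000564 with edgeR), Ddit4, an inhibitor of mTOR signalling (0.60, SE 0.12, adjusted p = 0.00376 with edgeR), the glucose transporter Slc2a1 (0.52, SE 0.10, adjusted p = 0.00122 with edgeR) and the NF-kappaB inhibitor Nfkbia (0.44, SE 0.11, adjusted p = 0.0472 with edgeR). In hippocampus they were Lcn2 (2.03, SE 0.54, adjusted p = 0.0215 with edgeR), the cell cycle inhibitor Cdkn1a (0.58, SE 0.14, adjusted p = 0.0111 with edgeR) and Slc2a1 (0.45, SE 0.08, adjusted p = 0.000321 with edgeR). Abcb1a, the efflux pump that carries glucocorticoids out of the brain's capillaries, was higher by 0.36 (SE 0.08, adjusted p = 0.00415 with edgeR) in hippocampus. None of the 10 members was called in this contrast with edgeR, with 4 in cortex and 2 in hippocampus at an unadjusted p under 0.05. In cortex the summed endothelial markers had a median of 204 CPM in the SS + RSD + minocycline mice and 167 in the AA + RSD + minocycline mice. In hippocampus these medians were 190 and 152, and the ranges overlapped in both tissues. What part endothelial cells had in these calls was not tested. Each group also held libraries that went against their genotype labels and were kept.

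Between tissues, 13 of 24 induced genes differed in AA mice, 9 higher and 4 lower in hippocampus, where 36.6% of all genes were called, among them Rasd1, a small G protein (3.28, SE 0.13, adjusted p = 7.2e-22 with edgeR), and the transcription factor Cebpd (2.42, SE 0.22, adjusted p = 5.92e-12 with edgeR). Of the CRH and vasopressin system 3 of 5 tested genes were higher in hippocampus, the vasopressin receptor Avpr1b (5.42, SE 0.45, adjusted p = 6.43e-13 with edgeR), the second CRH receptor Crhr2 (2.13, SE 0.25, adjusted p = 3.67e-09 with edgeR) and Avpr1a (0.90, SE 0.34, adjusted p = 0.0363 with edgeR). Crhr2 thus differed in the direction opposite to that of Crhr1. Choroid plexus markers summed to 29.6 to 4290 CPM in AA hippocampus, median 139, and to 7.45 to 33.2 in AA cortex, median 14.1. What part these cells had in the tissue differences was not tested. Cyp7b1, which hydroxylates neurosteroids, was also higher (1.196, SE 0.09, adjusted p = 1.52e-14 with edgeR), while H6pd, which supplies the cofactor of the Hsd11b1 enzyme, and Abcb1a were lower (-0.27, SE 0.095, adjusted p = 0.0248 and -0.26, SE 0.082, adjusted p = 0.0114 with edgeR).

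The genes whose pattern was most like that of a member were found by Pearson's r of group-centred log2 CPM, as a description over 64 cortex and 62 hippocampus libraries that share depth and the percent outside genes. Plekhf1 came first for Sgk1 in both tissues (r = 0.780 and 0.780), with Klf15, itself a glucocorticoid-induced gene, next in cortex (0.762) and Tsc22d3 at rank 3 in hippocampus (0.670). For Tsc22d3 the first were the astrocyte connexin Gjb6 in cortex (0.758) and Sdc4 in hippocampus (0.772), and for Fkbp5 they were Gpt2 (0.784) and Golm1 (0.814). Per1 lay nearest to Myo1c in cortex (0.826) and Wnk2 in hippocampus (0.939), with its paralogue Per2 at rank 3 in cortex (0.787), and Zbtb16 nearest to AC125351.1 (0.888) and Ipo9 (0.910). Nr3c1 lay nearest to Arap2 in cortex (0.912) and Pik3ca in hippocampus (0.843), Nr3c2 to Cntnap2 (0.910) and Epha4 (0.833), and Hsd11b1 to Pvalb (0.872) and Aldh1a1 (0.910). Crh lay nearest to Cavin3 (0.772) and Nap1l5 (0.702), and Crhr1 to Zkscan17 (0.842) and Tmem44 (0.856).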

How the data were processed

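Strand-specific libraries of poly(A) RNA were sequenced from a single end by the authors, who used STAR for alignment to GRCm39 and deposited raw read counts per GENCODE gene, 1 table per tissue; the STAR version, annotation release and strand setting are not given in the sources used here. Of the table columns, 3 matched no sample and were not used. Groups came from the labels, and 1 sample whose title and tissue label disagreed was left out. The 10 genes and the lists were chosen with earlier results of these data known.

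CPM is counts per 1000000 reads on genes. The counts were tested with edgeR 4.0.16 (TMM, filterByExpr with a minimum count of 10 and a total of 15, quasi-likelihood test, Benjamini-Hochberg over all genes tested). Within-genotype contrasts came from a model of that genotype's groups and genotype contrasts from all groups of a tissue. SE is the fold change over the square root of F. Alternatives were DESeq2 1.42.0, RLE size factors, no filter, only the groups compared, the number series or the percent of reads outside genes as a term, and leaving out libraries; those without low-marker libraries or 7076 and 9889, and the settings of the correlations, were chosen after seeing the data. A member got its statistics where it was called, or where none was, if its p was lowest; all 10 were given for SS + RSD against SS and for the tissues in AA mice. Of the pathway lists up to 3 genes of largest change were named per comparison, and those behind a count of 5 or fewer were added after their values were seen. Libraries with the same mouse number came from 1 animal, so the mouse block pairs them. The main tissue fit had no mouse term and took the cortex and hippocampus libraries of a mouse as independent. Other p-values measure the spread between these mice. On counts simulated from the SS and SS + RSD cortex libraries alone (17394 genes), edgeR called 45% of 1.5-fold and 69% of 2-fold changes. The reported test fitted all SS groups and called 2.57% of genes, against 19.2% with only these groups. The simulated shares are thus for another fit than the reported one. Gene positions are from GENCODE on GRCm39; file and annotation identifiers matched in all but the version.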

Additional observations from a re-analysis of the deposited data

Results flagged for a closer look

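Over the groups of 4 to 10 libraries, 60 sets of values of the 10 genes were tested for a library far from the others with Dixon's ratio, and 1 was marked, where chance marks about 5% of sets. In cortex of SS + RSD mice the Zbtb16 level of mouse 9621, 20.7 CPM, lay below the nearest of the other 5 libraries, 43.5 CPM, by 75.4% of the range of the group. That library also had the lowest sum of cortical neuron markers in its group.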

How the results depend on the processing

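Against 106 values as reported, 1119 recomputed values kept their direction and their side of the threshold, 10 passed the threshold only under the alternative and 12 only as reported, 28 turned in sign and 13 counts moved by over 1.5 times. For those that turned or moved the cause was not tested. No value that turned in sign in SS + RSD against SS was called in either form.

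In SS + RSD against SS, mice of series A only gave log2 fold changes of -0.326 for Crh, 0.046 for Crhr1, -0.075 for Hsd11b1 and 0.062 for Zbtb16 in cortex, and 0.199 for Crhr1, -0.088 for Hsd11b1, 0.022 for Per1 and 0.406 for Zbtb16 in hippocampus. The series as a term gave -0.318, 0.051, -0.071 and 0.067 for the same cortex genes, and 0.175, -0.111 and 0.378 for Crhr1, Hsd11b1 and Zbtb16 in hippocampus. The percent of reads outside genes as a term gave -0.152 for Crh and 0.277 for Zbtb16 in cortex and 0.076 for Crhr1 in hippocampus. Crh in SS + minocycline against SS cortex was 0.37 in series B only, Per1 in SS + RSD + minocycline against SS + RSD hippocampus was -0.092 with the series as a term, and Fkbp5 in SS + RSD against AA + RSD cortex was -0.003 with mouse 9674. In series B against A the outside-genes term gave -0.13 for Crhr1 and -0.16 for Zbtb16 in cortex and left 0 members called in cortex and 1 in hippocampus, where it called 0% and 10.9% of all genes.

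With mouse 9674 the members called became 1 in cortex and 2 in hippocampus for AA + RSD against AA (0.853% and 1.19% of all genes), 1 and 3 for AA + RSD + minocycline against AA + RSD (3.6% and 2.67%), and 1 in cortex for the interaction (0.236%) and for SS + RSD against AA + RSD (0.493%). For SS + RSD against SS in cortex 1 member, Per1, was called with DESeq2 (10.5% of all genes), with RLE size factors (4.33%), in a fit of only the groups compared (19.2%) and without the cortex libraries 7076 and 9889 (14.4%), so that 1 of 10 lay near or below the share of all genes in all but the RLE fit. Without those 2 libraries Per1 was also the 1 member called in SS + RSD + minocycline against SS + RSD (23.9% of all genes). Without mouse 9621 the Per1 value was -0.60 (adjusted p = 0.12 with edgeR).

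The mouse as a replicate block pairs the tissues of each animal and called 9 members in AA and 8 in SS mice, where 53% and 41.3% of all genes were called. Between mice, r was -0.75 for Crhr1 and -0.36 for Nr3c1 within series A, -0.51 for Nr3c1 within series C, 0.0967 for Nr3c2 within series B, and 0.0844 for Fkbp5 with Per1 in hippocampus within series A. The low counts of Crh in hippocampus and the 2 AA + RSD mice limit what could be detected.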
